A study of Mus musculus with 8 samples.

Results

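The pyruvate dehydrogenase complex and its regulatory enzymes were examined in adipose tissue macrophages (ATMs) from obese and lean mice. The set holds 9 genes named by their exact symbols: the kinases Pdk1, Pdk2, Pdk3 and Pdk4, the complex subunits Pdha1, Pdhb, Dlat and Dld, and the phosphatase Pdp1. Of these, 8 were measured among the 18820 genes of the array that had a probe set with exactly 1 gene symbol, and each gene was represented by its brightest probe set. Pdha1, the catalytic alpha subunit that the kinases phosphorylate, had 0 probe sets with 1 symbol, so no value is given for it. All mice were male wildtype C57Bl/6. The obese groups received a lard-based high-fat diet (HFD), in which fat supplied 45% of energy (experiments 1 and 3) or 60% (experiments 2 and 4), and the lean groups a lard-based low-fat diet (LFD), in which it supplied 10%. The labels give 16, 15, 16 and 10 weeks of diet for experiments 1, 2, 3 and 4. The study's methods instead give a single duration for its wildtype mice on HFD or LFD, the longest of these. ATMs were taken from epididymal adipose tissue by magnetic bead selection for the macrophage surface protein that Adgre1 encodes, and each of the 8 arrays (4 per diet, 1 of each diet per experiment) measured RNA from a pool of several mice. The p-values therefore measure the spread between pools and not between animals.

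Pyruvate dehydrogenase converts pyruvate from glycolysis into acetyl-CoA inside mitochondria and so joins glycolysis to the citric acid cycle. Pyruvate dehydrogenase kinases switch the complex off by phosphorylating its E1 alpha subunit, and the phosphatase removes these phosphates and switches it on again. In macrophages, the choice between making lactate and oxidising pyruvate is a known feature of inflammatory activation. Transcript levels, which the arrays measure, do not report the phosphorylation state of the complex.

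The promoter windows of Pdk1 and Pdk2 are shown because, of the 6 pairs of kinases, only this pair had differences between diets that stood in the same order in all 4 experiments, a choice made after the values were seen and not tested. The sequences are from RefSeq (GRCm38.p6) and run from 250 bases before to 50 bases after the gene start. Capitals mark every match on either strand to ACGTG (the hypoxia-inducible factor core), AGGTCA (a nuclear receptor half-site), GGGCGG (the GC box) or CCAAT. Pdk1 lies at chr2:71872974-71873273 on the plus strand and Pdk2 at chr11:95041322-95041621 on the minus strand.
Pdk1: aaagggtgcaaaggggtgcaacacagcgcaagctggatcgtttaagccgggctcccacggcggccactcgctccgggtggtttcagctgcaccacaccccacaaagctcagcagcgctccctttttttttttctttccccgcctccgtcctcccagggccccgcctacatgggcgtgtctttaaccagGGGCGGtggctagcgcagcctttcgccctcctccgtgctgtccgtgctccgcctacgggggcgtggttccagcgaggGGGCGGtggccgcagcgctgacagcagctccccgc
Pdk2: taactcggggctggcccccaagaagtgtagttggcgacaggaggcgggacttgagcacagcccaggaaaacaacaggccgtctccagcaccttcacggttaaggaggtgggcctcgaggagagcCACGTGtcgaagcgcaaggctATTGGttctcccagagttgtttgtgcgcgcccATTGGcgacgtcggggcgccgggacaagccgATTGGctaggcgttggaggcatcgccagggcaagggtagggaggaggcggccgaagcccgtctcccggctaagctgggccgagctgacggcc
Pdk1 and Pdk2 each had 2 windows listed, and only the first, shown here, was searched. That of Pdk1 held 2 GC boxes and no match to the other searched motifs. The Pdk2 window shown held 3 CCAAT matches and 2 overlapping matches to the hypoxia core in a single palindrome. In their windows, which are not shown, Pdk3 had 1 hypoxia core, 2 GC boxes and 1 CCAAT match, and Pdk4 had 1 CCAAT match. None of the windows searched for the 4 kinases, 1 per gene, held the nuclear receptor half-site. The windows of Pdk1, Pdk3 and Pdk4 also held GCGTG, which the counts of the hypoxia core leave out. Of 32851 RefSeq windows of the same length, 19.6% held the hypoxia core, 16.3% the half-site, 35.7% the GC box and 37.4% CCAAT. These matches are letters in a window and were not linked to the levels.

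The authors deposited log2 values whose medians ranged from 4.25 to 4.39 across arrays. Experiment 1 stood apart from the others. Adgre1, the gene of the selected surface protein, had log2 levels of 8.58, 10.70, 10.67 and 10.19 in ATMs from obese mice (experiments 1, 2, 3 and 4), against 6.54, 10.27, 10.95 and 9.95 in ATMs from lean mice. The mean level over 12 of 12 endothelial markers was 10.48 and 10.80 on the HFD and LFD arrays of experiment 1, and lay between 6.03 and 9.28 on the other 6 arrays. In such bulk samples, fewer cells of a type and less RNA per cell cannot be told apart.

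No measured gene of the set passed the adjusted threshold between obese and lean ATMs. In limma, 0 of 8 reached an adjusted p of 0.05 and 0 an unadjusted p of 0.05, also with experiment as a block and with the methods' t-test. The background was 0.00% of all genes called after adjustment, with or without the block. Without adjustment, 3.30% were higher and 1.51% lower in HFD, or 7.95% and 4.16% with the block. The median difference was 0.13 on the log2 scale over the 8 genes and 0.0049 over all genes. It was 0.026 over all genes without those under a log2 level of 4.32 on over 4 arrays. The HFD and LFD values overlapped for all 8 genes, whereas they did not overlap, with HFD higher, in 1.19% of all genes and, with HFD lower, in 0.680%. None of the 8 genes was under a log2 level of 4.32 (20 on the linear scale) on any array, the lowest value being 4.87.

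**Figure D1:**
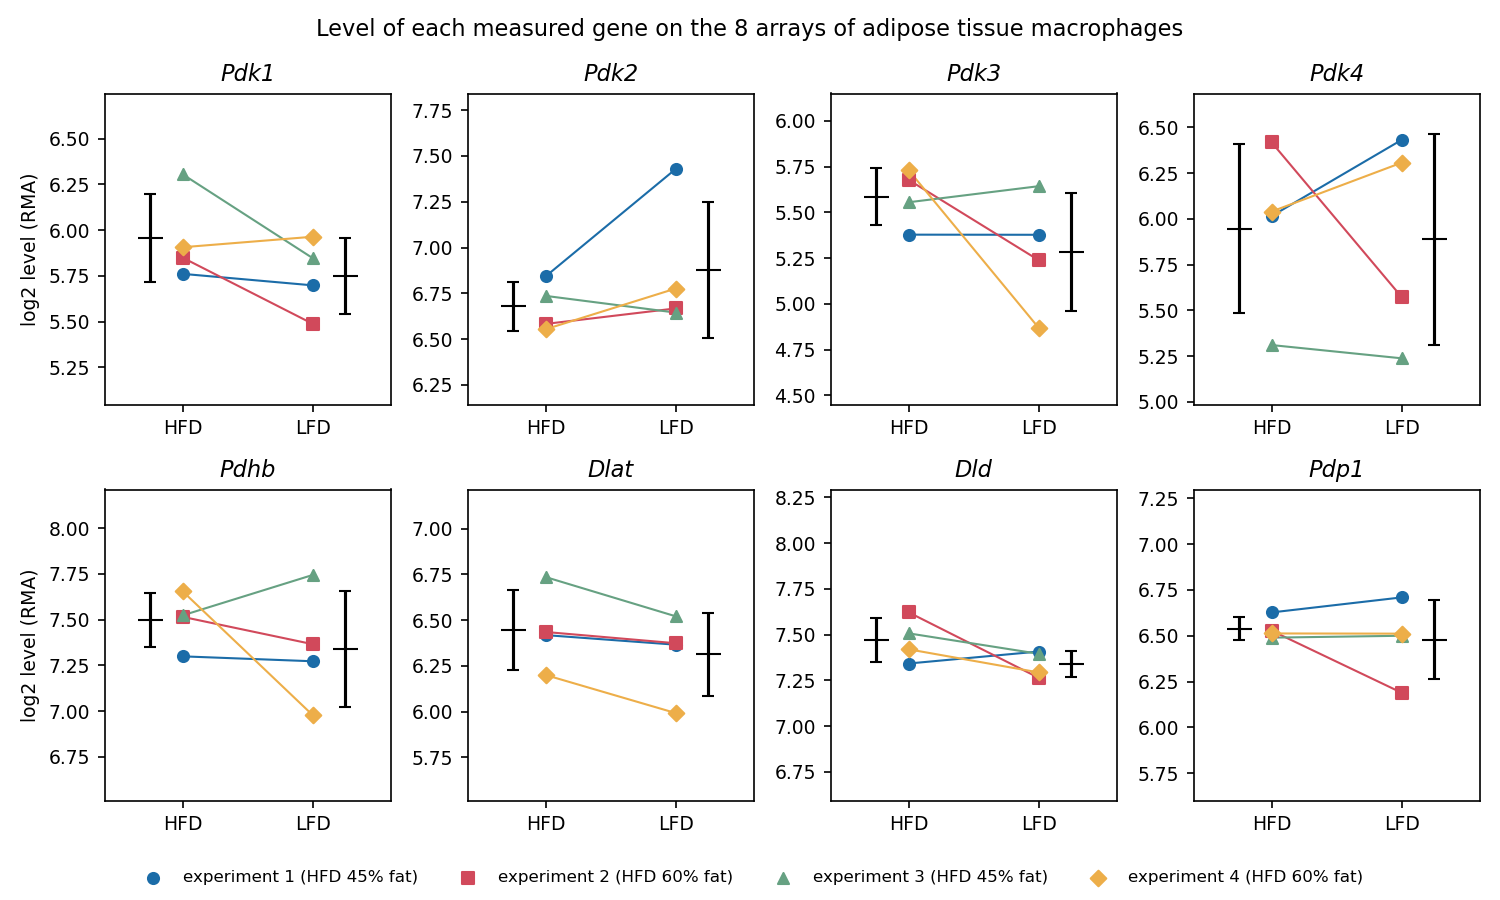
Deposited log2 level (vertical axis) of each of the 8 measured genes on all 8 arrays, with 1 panel per gene, HFD left of LFD, 1 symbol per experiment lines joining the arrays of 1 experiment, and black bars for the mean ± SD of the 4 pools of a diet. The ranges of HFD and LFD overlapped in every panel, and LFD experiment 1 stood highest for Pdk2 at 7.43.

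Among the kinases, which inhibit the complex, Pdk1 is a known target of hypoxia-inducible factor. Pdk1 had log2 levels of 5.76, 5.85, 6.30 and 5.91 in ATMs from obese mice (experiments 1, 2, 3 and 4), against 5.70, 5.49, 5.85 and 5.96 in ATMs from lean mice. HFD stood above LFD in experiments 1, 2 and 3 and below it in experiment 4, and the groups overlapped. The mean level was 5.96 ± 0.24 in HFD and 5.75 ± 0.21 in LFD (SD, n = 4 pools each), a difference of 0.21 (SE 0.15, 95% interval -0.14 to 0.56, limma adjusted p = 0.990). On the linear scale this is a 1.15-fold ratio with an interval of 0.905 to 1.47. The log2 difference was 0.090 without the HFD pool of experiment 3, the highest value.

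Pdk2, the kinase found in most tissues, was the only one of the 8 genes with a negative mean difference. Its log2 levels were 6.84, 6.58, 6.74 and 6.55 in ATMs from obese mice, against 7.43, 6.67, 6.64 and 6.78 in ATMs from lean mice. HFD lay below LFD in experiments 1, 2 and 4, and the LFD pool of experiment 1 lay above all other arrays. The mean was 6.68 ± 0.14 in HFD and 6.88 ± 0.37 in LFD (SD, n = 4 pools each), a difference of -0.20 (SE 0.18, 95% interval -0.63 to 0.23, limma adjusted p = 0.999). Without experiment 1 the difference was -0.07, and without its LFD pool alone it was -0.017. The 2 arrays of experiment 1, which had the 2 highest levels of Pdk2, also had the 2 highest means of endothelial markers, and the part of these cells in the Pdk2 levels was not tested.

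Pdk3, a further kinase isoform, had the largest mean difference of the 8 genes. Its log2 levels were 5.38, 5.68, 5.56 and 5.73 in ATMs from obese mice, against 5.38, 5.24, 5.64 and 4.87 in ATMs from lean mice. The diets were nearly level in experiment 1, HFD was lower in experiment 3 and HFD was higher in experiments 2 and 4, where LFD was at its lowest. The difference was 0.30 (SE 0.17, 95% interval -0.09 to 0.69, limma adjusted p = 0.982), from means of 5.59 ± 0.16 in HFD and 5.28 ± 0.32 in LFD (SD, n = 4 pools each). The LFD pools of experiments 3 and 4 were the highest and lowest lean values. Without the LFD pool of experiment 3 the difference was 0.42 (unadjusted p = 0.0267, adjusted p = 0.755, limma), and without that of experiment 4 it was 0.17 (unadjusted p = 0.258, adjusted p = 0.970, limma).

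Pdk4, the isoform known to be induced by fatty acids and fasting through peroxisome proliferator-activated receptors (PPARs), varied most between arrays. It had log2 levels of 6.02, 6.42, 5.31 and 6.04 in ATMs from obese mice, against 6.43, 5.57, 5.24 and 6.31 in ATMs from lean mice. HFD was higher in experiments 2 and 3 and lower in experiments 1 and 4. The range over the 8 arrays was 1.19, against a median of 0.63 over all genes and 0.75 over genes that were on no array under the log2 limit of 4.32. Experiment accounted for 70.6% of the variance of Pdk4 and diet for 0.418%, against medians of 56.6% and 7.94% over all genes. The mean was 5.95 ± 0.46 in HFD and 5.89 ± 0.58 in LFD (SD, n = 4 pools each), a difference of 0.06 (SE 0.33, 95% interval -0.71 to 0.83, limma adjusted p = 0.999). The interval of the linear ratio ran from 0.611 to 1.77. With experiment as a block, the log2 interval was narrower, -0.49 to 0.60 (limma adjusted p = 0.952). The 2 arrays of experiment 3 had the 2 lowest levels of Pdk4.

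Of the subunits of the complex, Pdhb encodes the beta subunit of E1. Its log2 levels were 7.30, 7.52, 7.52 and 7.65 in ATMs from obese mice, against 7.27, 7.37, 7.74 and 6.98 in ATMs from lean mice. HFD was higher in experiments 1, 2 and 4, the widest gap being 0.68 in experiment 4, and lower in experiment 3. The means were 7.50 ± 0.15 in HFD and 7.34 ± 0.32 in LFD (SD, n = 4 pools each), a difference of 0.16 (SE 0.16, 95% interval -0.22 to 0.54, limma adjusted p = 0.999). Leaving out the LFD pool of experiment 4 gave 0.037, and leaving out that of experiment 3 gave 0.29. Its second probe set lay between 2.88 and 3.68, under the log2 limit of 4.32, with a difference of -0.02.

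Dlat, the E2 acetyltransferase at the core of the complex, was the only one of the 8 genes with a higher level in HFD in all 4 experiments, a trait it lost after another quantile normalization of the arrays. It had log2 levels of 6.42, 6.43, 6.73 and 6.20 in ATMs from obese mice, against 6.37, 6.37, 6.52 and 5.99 in ATMs from lean mice. The differences were 0.05, 0.06, 0.21 and 0.21 in experiments 1, 2, 3 and 4, smaller than the spread between experiments, so that the groups overlapped. Of all genes, 11.0% were higher in HFD in all 4 experiments and 7.43% were lower, so 1 of 8 genes was near the background. The means were 6.45 ± 0.22 in HFD and 6.31 ± 0.23 in LFD (SD, n = 4 pools each), a difference of 0.13 (SE 0.15, 95% interval -0.22 to 0.48, limma adjusted p = 0.999). Experiment accounted for 85.7% of its variance, and with experiment as a block the interval was -0.06 to 0.33 (limma adjusted p = 0.593). The difference was 0.027 without the LFD pool of experiment 4 and 0.22 without its HFD pool.

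Dld, the E3 subunit shared with the 2-oxoglutarate and branched-chain complexes, varied least. Its log2 levels were 7.34, 7.62, 7.51 and 7.42 in ATMs from obese mice, against 7.41, 7.26, 7.40 and 7.29 in ATMs from lean mice. HFD was higher in experiments 2, 3 and 4 and lower in experiment 1, and the range over the 8 arrays was 0.36. The mean was 7.47 ± 0.12 in HFD and 7.34 ± 0.07 in LFD (SD, n = 4 pools each), a difference of 0.13 (SE 0.08, 95% interval -0.06 to 0.33, limma adjusted p = 0.990). Without the HFD pool of experiment 2, the highest value, it was 0.083.

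Pdp1, the phosphatase catalytic subunit that reactivates the complex, had log2 levels of 6.63, 6.53, 6.49 and 6.51 in ATMs from obese mice, against 6.71, 6.19, 6.50 and 6.51 in ATMs from lean mice. The differences were -0.08, 0.34, -0.01 and 0.0011 in experiments 1, 2, 3 and 4, so that experiment 2 alone set the diets clearly apart, and the 2 arrays of experiment 1 were the highest. The mean was 6.54 ± 0.06 in HFD and 6.48 ± 0.22 in LFD (SD, n = 4 pools each), a difference of 0.06 (SE 0.11, 95% interval -0.20 to 0.33, limma adjusted p = 0.999).

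**Figure D2:**
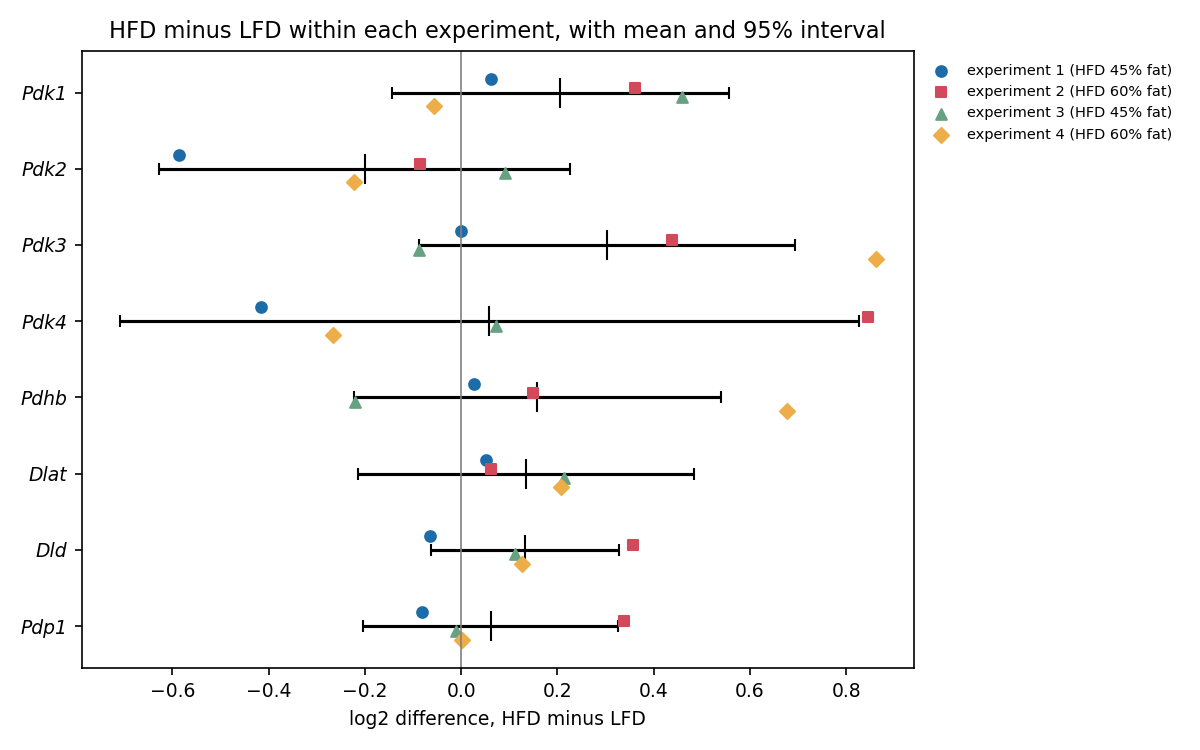
HFD minus LFD on the log2 scale (horizontal axis) for each gene within each of the 4 experiments, with the mean and its 95% interval from limma. Every interval crossed 0, and only Dlat had all 4 points above 0, which it did not keep after another quantile normalization.

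The experiments did not give the genes the same order of differences. In experiment 1 the kinases and subunits split evenly, with 4 of 8 higher in HFD and a median difference of -0.03, against 45.8% of all genes higher. Experiment 2 had 7 of 8 higher, all but Pdk2, and a median of 0.35, against 53.6% of all genes higher and a median of 0.02. Experiments 3 and 4 each had 5 of 8 higher, with medians of 0.08 and 0.06, against 43.1% and 52.6% of all genes. Without experiment 1, the differences were 0.25 for Pdk1, 0.40 for Pdk3, 0.22 for Pdk4, 0.20 for Pdhb, 0.16 for Dlat, 0.20 for Dld and 0.11 for Pdp1, and 0 of 8 genes passed the adjusted threshold.

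The fat content of the HFD differed between experiments, together with the weeks of diet. Both experiments with 45% fat lasted 16 weeks, and those with 60% lasted 15 and 10, so fat content and weeks cannot be told apart. For Pdk3, HFD minus LFD averaged 0.65 with 60% fat and -0.04 with 45% fat, a difference of 0.69 (SE 0.21, limma with experiment as a block, unadjusted p = 0.0262, adjusted p = 0.951). The corresponding averages were 0.41 and -0.10 for Pdhb and 0.29 and -0.17 for Pdk4. Dlat had 0.13 at both fat contents. No gene on the array passed the adjusted threshold for this difference.

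Levels of cell type markers varied between experiments, and 0 markers passed the adjusted threshold between diets in limma, with or without the block. Macrophage markers (8 of 8 measured) had a mean log2 level of 8.89 to 10.40 in HFD and 7.51 to 10.59 in LFD. Endothelial markers (12 of 12) ranged over 7.60 to 10.48 in HFD and 6.03 to 10.80 in LFD, and mural markers (7 of 7) over 6.50 to 9.24 in HFD and 5.14 to 9.26 in LFD. The HFD minus LFD difference of the endothelial mean was -0.32, -0.84, 1.93 and -1.67 in experiments 1, 2, 3 and 4. That of the macrophage mean was 1.37, 0.08, -0.24 and 0.08. Adipocyte markers (9 of 10) ranged over 4.85 to 6.40 in HFD and 5.26 to 6.32 in LFD, and fibroblast markers (8 of 8) over 7.28 to 8.94 in HFD and 5.95 to 8.14 in LFD. Mesothelial markers (5 of 5) ranged over 4.05 to 4.87 in HFD and 3.95 to 4.68 in LFD. Lymphocyte markers (5 of 6) ranged over 3.48 to 3.74 in HFD and 3.76 to 4.03 in LFD, with 3 of 5 under the log2 limit on all arrays. The part of these cells in the levels of the kinases and subunits was not tested.

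**Figure D3:**
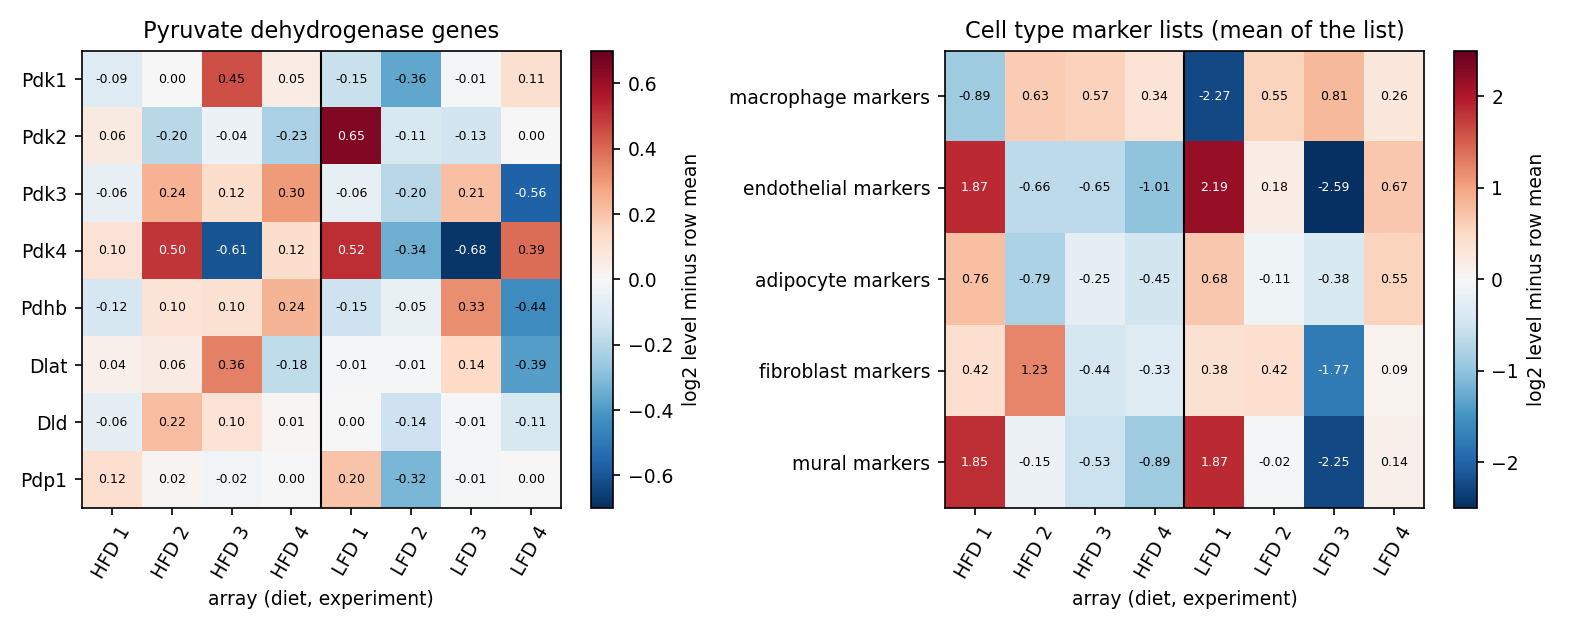
Log2 level of each measured gene, and mean log2 level of 5 of the marker lists, on the 8 arrays after subtraction of its own mean over the arrays, with HFD arrays left of LFD arrays. The endothelial mean was highest on the arrays of experiment 1, at 10.48 in HFD and 10.80 in LFD, where Pdk2 and Pdp1 also stood highest.

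For each gene, the transcripts whose levels over the 8 arrays were most like it were listed by Pearson r, as a description over arrays that share experiments and cell mixtures. Pdk1 was most like 4930579G24Rik (r = 0.972), Mybl2 (0.970), a transcription factor of proliferating cells, and Cmc2 (0.969). Pdk4 was most like Slc43a1 (0.912), an amino acid transporter, Ror1 (0.889), a receptor kinase, and Angptl4 (0.887), a secreted inhibitor of lipoprotein lipase, and without experiment 1 these were 0.897, 0.906 and 0.907 over 6 arrays. Angptl4 had log2 levels of 8.84, 8.27, 7.33 and 7.98 in HFD, against 9.38, 7.40, 6.34 and 8.82 in LFD. It was higher in HFD in experiments 2 and 3 and lower in 1 and 4, the same experiments as Pdk4. Because Angptl4 was picked from 10636 genes for its likeness to Pdk4 on these arrays, this match follows in part from that choice. Pdk2 was most like Rdh5 (0.983), Mphosph9 (0.975) and Tlr3 (0.973), and without experiment 1 these were 0.775, 0.725 and 0.955. The leading genes were Senp5 (0.953) for Pdk3, Tspyl2 (0.977) for Pdhb, Gtpbp2 (0.958) for Dlat, Eif2s3x (0.952) for Dld and Cep76 (0.972) for Pdp1.

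The genes around the complex were counted in 7 lists, in none of which a gene passed the adjusted threshold in limma, with or without the block. At an unadjusted p of 0.05 without the block, 4 lipid-responsive targets, 2 hypoxia-responsive targets, 1 gene of the related complexes and 1 of the other fates of pyruvate were higher in HFD, and 1 of the other fates of pyruvate was lower, against 3.30% of all genes higher and 1.51% lower. With the block, 5 lipid-responsive targets, 4 hypoxia-responsive targets, 3 genes of the other fates of pyruvate, 2 of the related complexes, 2 regulators and 1 gene of the other machinery were higher, and 1 of the other fates of pyruvate and 1 of acetyl-CoA use were lower, against 7.95% and 4.16% of all genes. Of all genes, 11.0% were higher and 7.43% lower in HFD in all 4 experiments. Other pyruvate dehydrogenase machinery (8 of 11 measured) had 1 gene higher in all 4, Mpc1, a subunit of the mitochondrial pyruvate carrier. Its differences were 0.34, 0.39, 0.04 and 0.59. The median difference of that list was -0.03. Related dehydrogenase complexes (11 of 11) had 2 genes higher in all 4 experiments. Ogdh, the E1 subunit of 2-oxoglutarate dehydrogenase, had a mean difference of 0.21 (SE 0.08). Bckdk, the kinase of the branched-chain complex, had 0.08 (SE 0.19), with only 0.0016 in experiment 2.

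Other fates of pyruvate (11 of 11) had 3 genes higher and 1 lower in HFD in all 4 experiments, against 11.0% and 7.43% of all genes. The median difference of the list was -0.02. Ldha, which makes lactate, was higher by 0.06, 0.70, 0.35 and 0.24, and Slc16a1, a lactate and pyruvate transporter, by 0.17, 0.48, 0.29 and 0.34. For Slc16a1 the mean difference was 0.32 (SE 0.09, unadjusted p = 0.00956, adjusted p = 0.982, limma). Gpt2, a mitochondrial alanine aminotransferase, had a mean difference of 0.51 (SE 0.44, or 0.15 with the block). Pcx, pyruvate carboxylase, had -0.28 (SE 0.12, or 0.09 with the block) with all 8 arrays under the log2 limit of 4.32. Among genes of acetyl-CoA use and supply (6 of 6), citrate synthase, Cs, was higher in all 4 experiments with a mean of 0.27 (SE 0.15, or 0.12 with the block). Acat1 was lower in all 4 with -0.28 (SE 0.19, or 0.10 with the block).

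Lipid-responsive PPAR targets (11 of 14) had 5 genes higher and 0 lower in all 4 experiments, against 11.0% and 7.43% of all genes. The median difference of the list was 0.26. Hadha, the alpha subunit of the mitochondrial trifunctional protein of beta-oxidation, had differences of 0.40, 0.86, 0.66 and 0.60 and a mean of 0.63 (SE 0.17, unadjusted p = 0.00636, adjusted p = 0.982, limma, and adjusted p = 0.115 with the block). Hadhb, its beta subunit, had a mean of 0.35 (SE 0.12), Plin2, a lipid droplet protein, of 1.06 (SE 0.43), and Cd36, a fatty acid carrier, of 0.33 (SE 0.15). With the block the SEs of Hadhb, Plin2 and Cd36 were 0.09, 0.24 and 0.10. Pdk4, a target of the same receptors in other tissues, had a mean of 0.06, and the difference between Pdk4 and these genes was not tested.

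Hypoxia-responsive targets (12 of 13) had 4 genes higher and 0 lower in all 4 experiments, against 11.0% and 7.43% of all genes. The median difference of the list was 0.08, with mean differences from -0.44 to 0.74. Ldha stands in both this list and the list of other fates of pyruvate. Vegfa, an angiogenic factor, had differences of 0.76, 1.52, 0.44 and 0.26, and Pgk1, a glycolytic enzyme, of 0.57, 0.76, 0.48 and 0.24. Car9, a carbonic anhydrase, had a mean of 0.48 (SE 0.31, or 0.12 with the block). For Car9, 6 of 8 arrays, among them all 4 LFD arrays, were under the log2 limit of 4.32. Pdk1, which belongs to the same known response, had 0.06, 0.36, 0.46 and -0.06. Known regulators of the kinase genes (13 of 13) had 1 gene higher in all 4 experiments, Foxo3, with 0.21 (SE 0.32, or 0.09 with the block). Lower in all 4 were 2 genes, Ppard with -0.13 (SE 0.08) and Rxra with -0.15 (SE 0.10), although in experiment 4 by only -0.0045 and -0.0042. The 2 regulators counted as higher with the block were Pparg and Ppargc1a. Pparg had 0.47 (limma with the block, unadjusted p = 0.0339, adjusted p = 0.367), with a difference of 0 in experiment 4. Ppargc1a had 0.30 (limma with the block, unadjusted p = 0.0313, adjusted p = 0.359), with 0 in experiment 1 and all 8 arrays under the log2 limit.

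**Figure D4:**
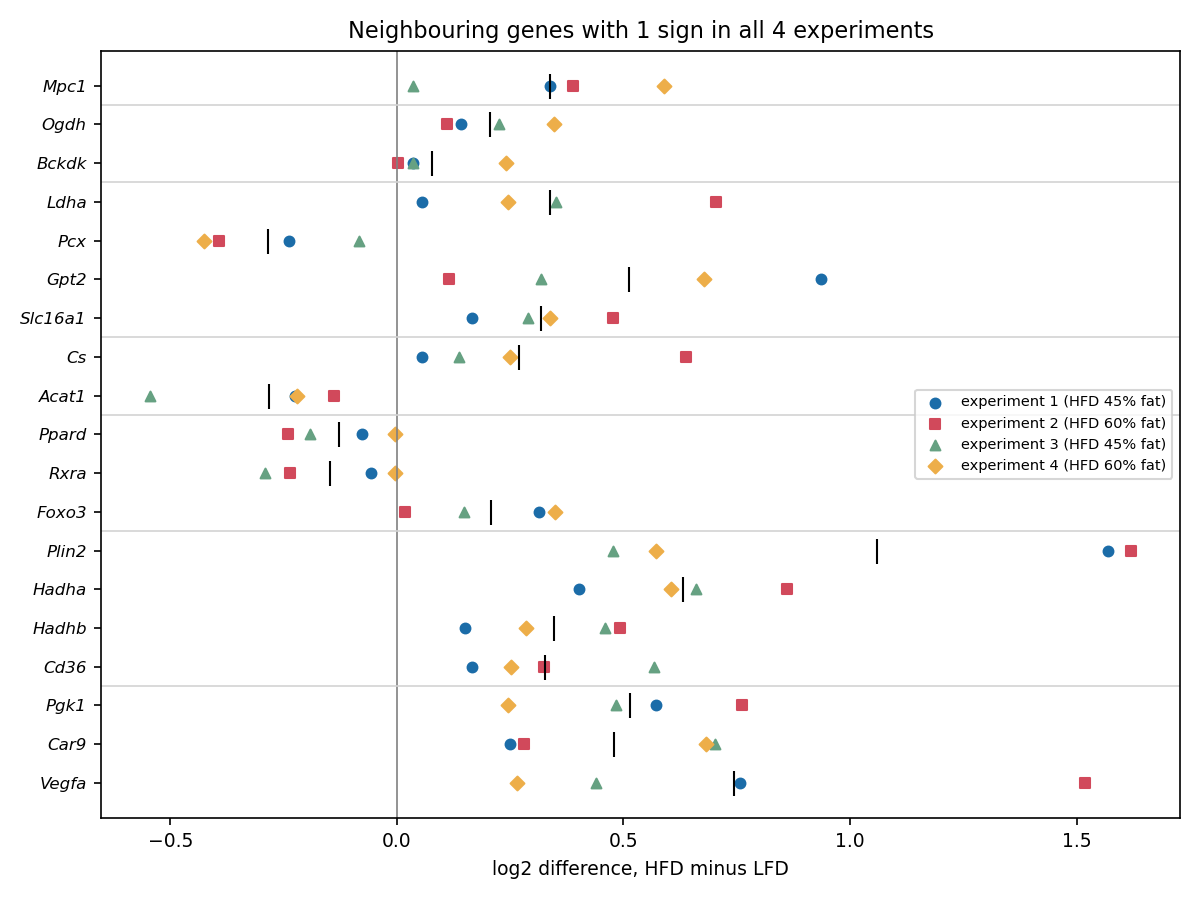
HFD minus LFD on the log2 scale (horizontal axis) within each experiment for the named genes of the 7 lists, with the mean as a vertical bar and lines between lists. Vegfa and Plin2 reached 1.52 and 1.62 in experiment 2, and Pcx, Acat1, Ppard and Rxra lay below 0.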

How the data were processed

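RNA of bead-selected ATM pools from HFD and LFD mice was measured on 8 arrays, 4 per diet. The values that the authors deposited are on a log2 scale. RMA is named in the submitters' processing notes, and its version is not given in the sources used here. Of 35556 features, 21218 had 1 symbol, 1881 several and 12457 none in the platform annotation, giving 18820 genes, of which 18790 were matched by Entrez ID to RefSeq. There were 8197 dim genes (below the log2 limit of 4.32 on over 4 arrays), and they were kept.

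HFD and LFD arrays were compared with limma 3.58.1 in R 4.3.3 with Benjamini-Hochberg adjustment over all 18820 genes and a threshold of 0.05. SE and 95% intervals are from the fit without a block unless the block is named. The block follows the pairing of the arrays. Its SE was larger for Pdk3 (0.18) and Dld (0.10) and smaller for the other genes of the set. With the block, the limma adjusted p-values of the 8 genes ran from 0.566 (Pdk1) to 0.952 (Pdk4). The experiment number, which comes from the labels, pairs the samples. Deviations of the HFD and LFD arrays from the diet means had correlations across all genes of 0.889, 0.357, 0.652 and 0.186 in experiments 1, 2, 3 and 4. Over the 8 genes of the set these were 0.862, -0.221, 0.692 and -0.0046, so the set shared no deviations in experiments 2 and 4. Precision is limited by the number of arrays. The fits were tested on simulated data.

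The 9 genes, 7 lists around them and 7 marker lists were chosen with earlier results of these data known. All measured genes of the set are named. In each list up to 4 genes with the largest mean difference of 1 sign in all 4 experiments are named, and for each gene of the set the leading correlated genes among those with a mean over the log2 limit. The text names 3 such genes for Pdk1, Pdk2 and Pdk4 and 1 for each other gene of the set. The 19 alternatives covered the block, left-out arrays, scalings, probe sets, the methods' Student's t-test and each fat content.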

Additional observations from a re-analysis of the deposited data

Results flagged for a closer look

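The LFD pool of experiment 1 lay apart from the other lean pools for Pdk2, with a log2 level of 7.43 against 6.64 to 6.78. Its gap took 0.832 of the range of the 4 LFD pools, just past Dixon's critical value for groups of 4, and chance marks about 1 in 20 groups in this way. Pdp1 had differences above 0 in both experiments with 60% fat and below 0 in both with 45% fat, although that of experiment 4 was 0.0011. The difference between the fat contents was 0.22 (SE 0.20, limma with experiment as a block, unadjusted p = 0.323, adjusted p = 0.951) and was not past the threshold.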

How the results depend on the processing

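Over 152 combinations of 8 genes and 19 alternatives, 143 kept their direction, 9 turned direction and 0 passed the adjusted threshold. No gene on the array passed that threshold under any alternative, so the lack of a pass is not particular to the set. The block, the t-test and leaving out dim genes keep each difference by construction, as does averaging probe sets for genes with 1 probe set. In these combinations the direction could not turn. The median difference of 0.13 is the same with the replicate block by construction, since each experiment holds 1 array of each diet, and 0 genes of the set passed with it, adjusted or unadjusted. The median was 0.081 after centring each array on its median, 0.084 after another quantile normalization and 0.20 without experiment 1. The median over all genes moved as well, to -0.047, -0.014 and 0.0094 in these settings, from 0.0049 in the main fit. The count of genes of the set at an unadjusted p of 0.05 was 0, with a range of 0 to 1 when single arrays were left out (Pdk3 without the LFD pool of experiment 3) and 1 with 60% fat alone (Pdk3). The count with 1 sign in every experiment was 1, ranged from 1 to 4 when single arrays were left out, and was 2 without experiment 1 (with or without the block), 0 after another quantile normalization (Dlat was lost), 3 with 45% fat alone and 6 with 60% alone. With fewer experiments more genes have 1 sign by construction: 18.4% of all genes with 4 experiments, 29.6% without experiment 1, and 45.4% and 55.3% with 45% and 60% fat alone. Leaving out a single array breaks its pair, and 26.5% to 33.7% of all genes then had 1 sign. The 33.7% was without either array of experiment 3, where the set had 4. The share of all genes was 20.7% after another quantile normalization and 24.7% without dim genes.

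With 45% fat alone the median difference was -0.045, and the difference was -0.044 for Pdk3, -0.17 for Pdk4, -0.10 for Pdhb and -0.046 for Pdp1. When single arrays were left out, the difference ranged from -0.16 (LFD experiment 3) to 0.27 (HFD experiment 3) for Pdk4 and from -0.034 (LFD experiment 2) to 0.14 (LFD experiment 1) for Pdp1, and another quantile normalization gave -0.0096 for Pdk4. The causes were not tested. Over all genes, the count at an unadjusted p of 0.05 was 905, of which 621 were higher in HFD, 2280 (1497 higher) with the block, 714 (312 higher) after centring each array on its median, 917 (462 higher) after another quantile normalization, 521 to 1456 with single arrays left out, 1678 without experiment 1 (1961 with the block), 193 with 45% fat alone and 2013 with 60% alone. With 4 pools per diet, the interval of each of the 8 genes of the set held a ratio of 1.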

Other observations

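Differences between genes of the set were compared within experiments, which needs no level of one probe set against another. Of 28 pairs, which share their genes, 4 (14.3%) had 1 sign in all 4 experiments. The share over all pairs of genes on the array was not computed. The 18.4% of single genes with 1 sign is an unlike quantity and gives no background for pairs. The HFD minus LFD difference of Pdk1 exceeded that of Pdk2 by 0.65, 0.45, 0.37 and 0.17 in experiments 1, 2, 3 and 4, a mean of 0.41. The difference of Pdk2 lay below those of Dlat and Dld in all 4 experiments, by means of -0.33 and -0.33, and that of Dld lay above that of Pdp1 by a mean of 0.07. Without a test, these are descriptions, chosen from all 28 pairs after their values were seen.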
